A study of Homo sapiens with 4 samples.

Results

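The vascular connexins GJA4, GJA5, GJA1 and GJC1, which encode Cx37, Cx40, Cx43 and Cx45, were followed in cells differentiated from the established line H1 of human embryonic stem cells (hESCs). They were taken by gene symbol as 4 of the 58365 rows of the expression table, and they are 4 of its 21 connexin genes. They were chosen by symbol, with the highest mean FPKM to decide between several rows of 1 symbol. Each symbol had 1 row, so no measured value entered that choice, but the set was proposed with the earlier result of SB against DMSO known. All 4 genes passed the filter on low values. Every library came from the same culture protocol. Cells received activin A with BMP4 for 2 days, VEGF with bFGF for 3 days, and VEGF with bFGF again for a final 3 days. In those final days the cells were given either the vehicle DMSO (2 libraries) or SB431542, an inhibitor of TGFβ type I receptors (SB, 2 libraries), and they were collected at day 8. The study's methods state that CD31-positive cells were collected, a step that the sample labels leave out. All libraries came from 1 cell line with no genetic change named in the labels, and nothing states that the replicates were separate differentiations, so the p-values below measure only the spread between these libraries, which may be technical.

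Connexins are membrane proteins that assemble into hexameric channels. Channels of neighbouring cells dock to form gap junctions, through which ions and small molecules pass directly from cell to cell. In blood vessels, Cx37 and Cx40 are the main connexins of endothelium, with Cx40 particularly associated with arteries and, in the heart, with atrial muscle and the conduction system. Cx43 is the most widely expressed connexin and is found in vascular smooth muscle, heart muscle and many other cells, and Cx45 is expressed early in the developing heart and vessels.

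GJA5, the gene whose level separated the groups, lies on the minus strand of chromosome 1 (147756199 to 147773362, GRCh38, ENSG00000265107.2). The RefSeq promoter table (GRCh38.p14) holds 2 start sites for it. The 250 bases upstream of each are shown because TGFβ signaling acts through SMAD proteins, endothelial genes are widely bound by ETS factors, and T-box factors act on cardiac connexin genes. Capitals mark AGGAA, which holds the GGAA core of ETS motifs. GGAA after any other letter was not searched for and stays in small letters. The first promoter lies at chr1:147773352-147773601, and the second, at chr1:147760603-147760852, has 246 bases within a GJA5 intron of GENCODE release 29.
GJA5 promoter 1: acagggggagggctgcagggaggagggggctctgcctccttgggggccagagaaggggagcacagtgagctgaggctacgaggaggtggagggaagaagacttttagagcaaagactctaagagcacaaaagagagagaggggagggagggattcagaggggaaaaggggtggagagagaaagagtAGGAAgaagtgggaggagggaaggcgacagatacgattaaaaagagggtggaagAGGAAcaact
GJA5 promoter 2: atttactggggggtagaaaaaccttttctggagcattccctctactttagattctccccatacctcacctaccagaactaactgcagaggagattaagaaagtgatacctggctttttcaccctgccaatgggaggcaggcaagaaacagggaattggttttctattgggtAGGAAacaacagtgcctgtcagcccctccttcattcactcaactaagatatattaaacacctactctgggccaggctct

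Both strands were searched for AGGAA, for CAGAC (a SMAD box) and for GGTGTG (a T-box core), which do not overlap one another here. Promoter 1 held AGGAA at 2 places, from -64 to -60 and from -10 to -6 relative to the start, and promoter 2 held it at 1 place, from -79 to -75. Neither held CAGAC or GGTGTG. Among 35116 promoters of this length, 56.8% held AGGAA, 38.0% held CAGAC and 14.2% held GGTGTG, so the letters found are common ones. The values were given per gene, so they did not show which start site was used.

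GJA5 fell with SB. It was measured at 491 and 399.8 FPKM (a fragment count corrected for transcript length and for the mapped total of the library) in DMSO replicates 1 and 2, and at 69.3 and 58.3 FPKM in SB replicates 1 and 2. Both SB libraries lay far below both DMSO libraries, and the gap between groups was much wider than the gap within either. The mean was 445 ± 64.2 FPKM with DMSO and 63.8 ± 7.78 FPKM with SB (SD, n = 2 each), a ratio of 6.98. Within replicate numbers 1 and 2, the SB library was 85.9% and 85.4% lower than the DMSO library. On the log2(FPKM + 1) scale the change was -2.78 (SE 0.19, 95% interval -3.28 to -2.28), with an adjusted p of 0.0365 by limma with Benjamini-Hochberg adjustment over 14909 tested genes. Of these genes, 0.141% had a more negative change. GJA5 ranked 138 and 159 by level among all rows in the DMSO libraries and 1424 and 1563 in the SB libraries.

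The size of the fall moved little when any 1 library was left out, but each time the call was lost. The log2 change was -2.63 without DMSO replicate 1 (limma adjusted p = 0.157), -2.93 without DMSO replicate 2 (0.0984), -2.90 without SB replicate 1 (0.130) and -2.66 without SB replicate 2 (0.194). With no filter on low values, the change was the same and the adjusted p was 0.300. An antisense gene, AC241644.3 (chromosome 1, 147757185 to 147758434, plus strand), shares 668 of the 3292 exonic bases of GJA5, and strand use in counting is not stated. That gene was listed at no more than 4.36e-57 FPKM in any library, so nearly all reads from the shared bases were assigned to GJA5, and reads of the antisense gene cannot be told apart from it.

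**Figure D1:**
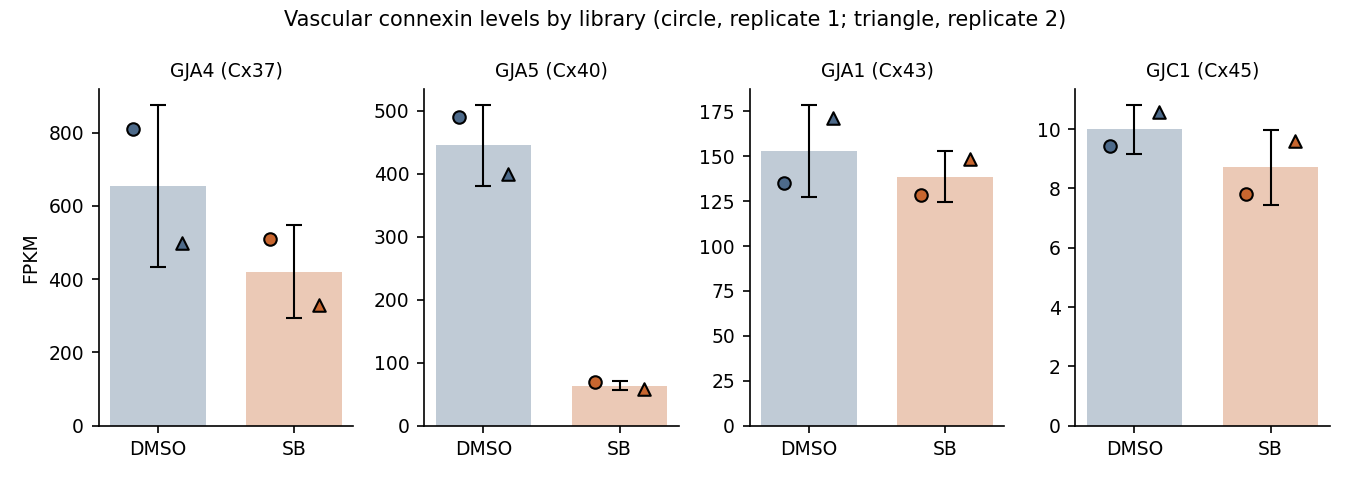
FPKM (linear axis from 0, a separate scale per gene) of the 4 vascular connexins with DMSO and with SB431542 (SB). Bars are means, error bars are SD (n = 2) and points are single libraries. GJA5 went from 445 to 63.8 FPKM on average with no overlap between groups, while the SB points of GJA4, GJA1 and GJC1 overlap the DMSO points.

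GJA4 encodes Cx37, the other major endothelial connexin, and lies on the plus strand of chromosome 1 (34792998 to 34795747, ENSG00000187513.8). Its DMSO libraries read 810.2 and 497 FPKM and its SB libraries 510.4 and 331 FPKM. The groups overlapped, since the lower DMSO library lay below the higher SB library, and in each group replicate 1 was well above replicate 2. Within replicate numbers 1 and 2, the SB library was 37.0% and 33.5% lower. The mean was 654 ± 221 FPKM with DMSO and 421 ± 127 FPKM with SB (SD, n = 2 each), and the log2 change of -0.63 (SE 0.34, 95% interval -1.50 to 0.24) did not pass the test (limma adjusted p = 0.679). The replicates themselves differed by 0.70 on the log2 scale with DMSO and by 0.62 with SB, with replicate 1 the higher in both. Leaving out 1 library moved the change to between -0.98 (without DMSO replicate 2) and -0.28 (without DMSO replicate 1), never past the threshold.

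GJA1 encodes Cx43 and lies on the plus strand of chromosome 6 (121435692 to 121449727, ENSG00000152661.7). Its level was 135 and 171 FPKM with DMSO and 129 and 149 FPKM with SB. The values of both groups were interleaved. The means were 153 ± 25.6 and 139 ± 14.1 FPKM (SD, n = 2 each), and the log2 change was -0.13 (SE 0.20, 95% interval -0.64 to 0.38, limma adjusted p = 0.921). Without DMSO replicate 2 its sign turned, to 0.036 (adjusted p = 0.964). Even the lower end of this interval lies well above the change of GJA5. Of the 3408 stretches of 50 bases in GJA1 transcripts, 5.72% also occur in the pseudogene GJA1P1, where reads could have been split.

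GJC1 encodes Cx45, lies on the minus strand of chromosome 17 (44798448 to 44830816, ENSG00000182963.9) and was the lowest of the 4 genes. It was measured at 9.42 and 10.6 FPKM with DMSO and at 7.82 and 9.61 FPKM with SB. The higher SB library lay above the lower DMSO library. The means were 9.99 ± 0.819 and 8.71 ± 1.27 FPKM (SD, n = 2 each). The log2 change was -0.18 (SE 0.19, 95% interval -0.66 to 0.30), which did not pass the test (limma adjusted p = 0.863).

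Read together, 1 of the 4 vascular connexins was called at an adjusted p under 0.05, against 0.134% of all tested genes (0.107% lower and 0.0268% higher with SB). At an unadjusted p under 0.05 it was also 1 of the 4, against 9.96%, and 1 of the 4 had a log2 change of -1 or less, against 2.16%. The groups did not overlap for 1 of the 4, against 37.5% of all tested genes, or 16.0% counting those lower with SB and 21.5% counting those higher. All 4 were lower with SB within both replicate numbers and none was higher within both, against 30.6% and 40.9% of all tested genes. The median change of the 4 genes was -0.40 on the log2 scale, against 0.04 over all tested genes. These shares describe the 4 genes, which were picked with the fall of GJA5 already known.

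**Figure D2:**
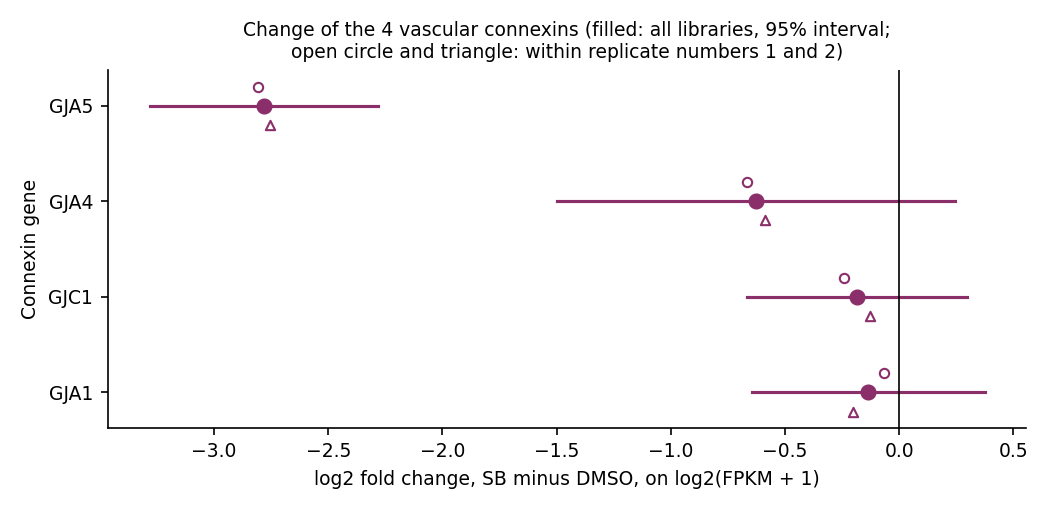
Log2 fold change (SB minus DMSO, log2(FPKM + 1)) of the 4 vascular connexins. Filled points with lines are limma estimates with 95% intervals, and open circles and triangles are the differences within replicate numbers 1 and 2. The interval of GJA5, at -3.28 to -2.28, is the only one of the 4 that lies away from 0.

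Because FPKM is scaled by transcript length, the levels of the paralogs could be set side by side. With DMSO the order was GJA4, GJA5, GJA1 and GJC1 in both libraries. The top of this order was not separated by the spread, since GJA5 in DMSO replicate 1 (491 FPKM) was close to GJA4 in DMSO replicate 2 (497 FPKM). With SB the order was GJA4, GJA1, GJA5 and GJC1 in both libraries, with every neighbour separated. GJA5 and GJA1 thus changed places. There were 3.64 and 2.34 FPKM of GJA5 for each FPKM of GJA1 in the DMSO libraries, and 0.539 and 0.392 in the SB libraries.

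The ratio of GJA5 to GJA4, the pair of endothelial connexins, was 0.605 and 0.804 with DMSO and 0.136 and 0.176 with SB. The log2 difference between these genes shifted by -2.15, with -2.14 and -2.17 within the replicate numbers, so GJA5 lost ground to GJA4 by nearly the same amount in each. The shift of GJA5 was -2.65 against GJA1 and -2.60 against GJC1. In all 3 pairs that contain GJA5 the groups did not overlap, and in the 3 pairs without it they did. The 3 pairs with GJA5 share its values, so they are not separate results. With 2 libraries a group, the exact permutation test (two-sided) cannot go below p = 0.333, the value all 3 pairs with GJA5 reached, so none of the 6 pairs could pass a threshold. GJA1 and GJC1 kept the steadiest ratio, at 14.3 and 16.2 with DMSO and 16.5 and 15.5 with SB.

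The 4 genes made up nearly all connexin RNA. They held 98.9% and 99.0% of the summed FPKM of the 21 connexin genes in the DMSO libraries and 98.0% and 97.8% in the SB libraries. Their own sum was 1445 and 1079 FPKM with DMSO and 716 and 547 FPKM with SB, with no overlap between groups. The share of GJA5 was 33.6% and 36.7% with DMSO and 9.49% and 10.4% with SB, a difference of -25.2 percentage points between means of 35.1 ± 2.19% and 9.95 ± 0.659% (SD, n = 2 each). The shares of the other members were higher with SB. A smaller share of GJA5 fixes only that the summed share of all other connexins rises, not that each share does. GJA4 held 55.5% and 45.6% with DMSO and 69.9% and 59.1% with SB. GJA1 held 9.23% and 15.7% with DMSO and 17.6% and 26.6% with SB. GJC1 stayed below 2% in every library, at most 1.72%.

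**Figure D3:**
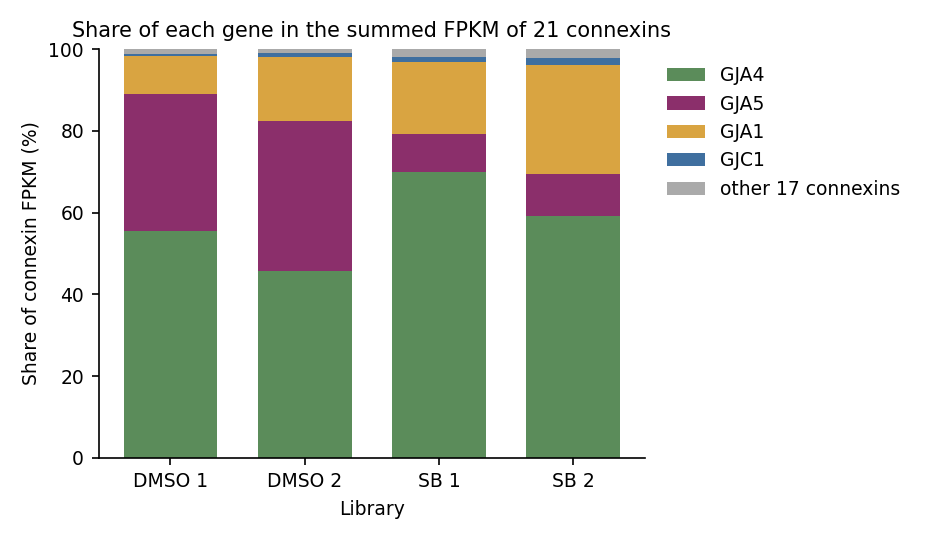
Share (%) of each gene in the summed FPKM of the 21 connexin genes, 1 bar per library. GJA5 (purple) takes 33.6% and 36.7% in the DMSO libraries and 9.49% and 10.4% in the SB libraries, and GJA4 (green) is the largest part in every library.

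In bulk RNA, fewer cells of a type and less RNA per cell cannot be told apart, so the connexins were also set against endothelial genes. PECAM1, which encodes the adhesion molecule CD31, was at 197 and 163 FPKM with DMSO and at 182 and 153 FPKM with SB. As a percentage of PECAM1, GJA5 stood at 249% and 245% with DMSO and at 38.1% and 38.2% with SB. The log2 difference between GJA5 and PECAM1 shifted by -2.67, and by -2.81 when the mean of 10 endothelial markers was used in place of PECAM1. GJA4 stood at 411% and 305% of PECAM1 with DMSO and at 281% and 217% with SB. For GJA1 (68.4% and 105% with DMSO, 70.8% and 97.4% with SB) and GJC1 (4.78% and 6.48%, then 4.30% and 6.30%) the groups overlapped. PECAM1 is the marker by which the study's methods collected the cells, so its level is partly set by that step.

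**Figure D4:**
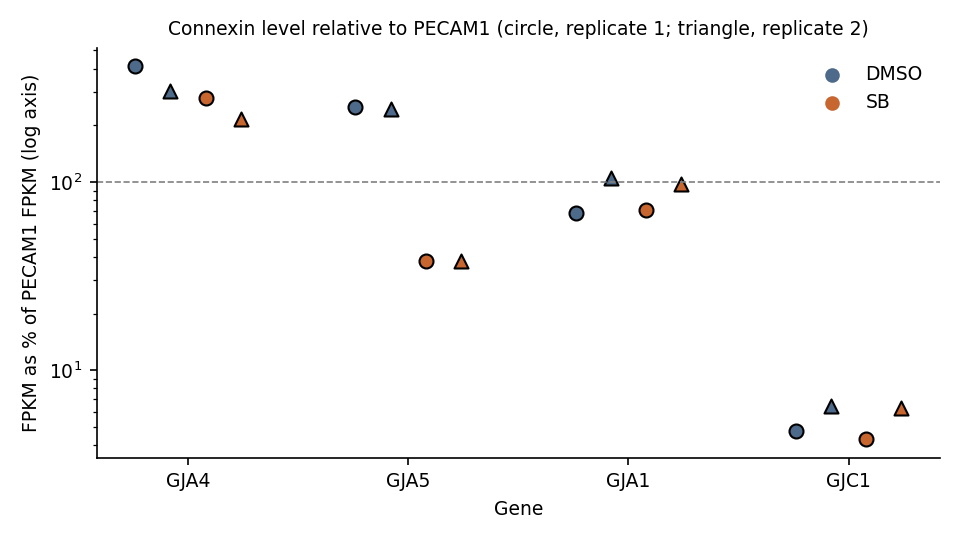
FPKM of each vascular connexin as a percentage of PECAM1 FPKM in the same library (log axis, the dashed line marks 100%). Blue points are DMSO and orange points SB libraries. GJA5 is near 249% with DMSO and near 38.1% with SB, while the points of GJA1 and GJC1 overlap between groups.

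The labels name H1-derived cells of hematopoietic differentiation and no endothelial gate, so the libraries were read against markers of several cell types. The 10 endothelial markers summed to 2509 and 2085 FPKM with DMSO and 2481 and 2103 FPKM with SB, with none at 0 and none called (1, CLDN5, had an unadjusted p under 0.05 and was higher with SB). The 7 hematopoietic markers summed to 346 and 298 FPKM with DMSO and 579 and 483 FPKM with SB. All 6 that were tested were above DMSO in both SB libraries and none was called (4 had an unadjusted p under 0.05), where 21.5% of all tested genes lay above DMSO in this way, and PTPRC was at most 0.202 FPKM. The 7 smooth muscle and mural markers summed to 241 and 349 FPKM with DMSO and 120 and 143 FPKM with SB. RGS5 made up most of this sum. All 5 that were tested were below DMSO in both SB libraries, against 16.0% of all tested genes, 4 had an unadjusted p under 0.05 and none was called. An unadjusted p under 0.05 was reached by 9.96% of all tested genes in either direction. ACTA2 was at 46.0 and 51.8 FPKM with DMSO and 32.4 and 36.4 FPKM with SB. TAGLN was at 17.8 and 17.4 FPKM with DMSO and 5.23 and 4.22 FPKM with SB (-1.70, limma adjusted p = 0.0798). MYH11, which defines mature smooth muscle, was at most 0.220 FPKM. GJA1, a connexin of smooth muscle and many other cells, was at overlapping levels in the same libraries. Which cells its RNA came from was not tested.

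GJA5 is also a connexin of atrial muscle. The 7 cardiac muscle markers summed to 50.4 and 27.4 FPKM with DMSO and 12.3 and 6.80 FPKM with SB, with NKX2-5 as the largest part in every library (45.3 and 21.9 FPKM with DMSO, 10.4 and 5.23 FPKM with SB). All 3 that were tested were below DMSO in both SB libraries, none was called, and 2 had an unadjusted p under 0.05. Of all tested genes, 16.0% lay below DMSO in this way and 9.96% had an unadjusted p under 0.05 in either direction. Among the contractile genes, ACTN2 was at 1.47 and 2.05 FPKM with DMSO and 0.935 and 0.639 FPKM with SB. TNNI1 was at 0.854 and 1.10 FPKM with DMSO and 0.442 and 0.274 FPKM with SB. MYL7 was at 1.64 and 1.32 FPKM with DMSO and at 0 and 0.352 FPKM with SB, TNNT2 was at most 0.899 FPKM, and MYH6 was at most 0.296 FPKM. The 6 endoderm and liver markers summed to 157 and 171 FPKM with DMSO and 13.0 and 12.5 FPKM with SB, with AFP (-3.55), APOA1 (-3.81) and TTR called lower (limma adjusted p from 0.0201 to 0.0353). The log2 changes of these 3 genes were more negative than that of GJA5. Of all tested genes, 0.107% were called lower with SB. ALB was at most 0.481 FPKM. The 6 mesenchyme markers summed to 237 and 189 FPKM with DMSO and 77.4 and 70.6 FPKM with SB. All 4 that were tested were below DMSO in both SB libraries, against 16.0% of all tested genes. All 4 also had an unadjusted p under 0.05, and none was called. The 5 markers of undifferentiated cells summed to 85.4 and 88.1 FPKM with DMSO and 120 and 122 FPKM with SB. All 3 that were tested were above DMSO in both SB libraries, against 21.5% of all tested genes. Of these 3, 2 had an unadjusted p under 0.05 and none was called. LIN28A was at 42.6 and 51.0 FPKM with DMSO and 65.2 and 76.0 FPKM with SB, POU5F1 was at most 0.473 FPKM with DMSO and at least 1.23 FPKM with SB, and NANOG was at most 0.0261 FPKM. The part of these cell types in the change of GJA5 was not tested.

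Of the other 17 connexin genes, 3 passed the filter on low values and none was called (0 also at an unadjusted p under 0.05). GJD3 was at 8.06 and 5.72 FPKM with DMSO and 8.34 and 7.27 FPKM with SB. Its log2 change was 0.17 (limma adjusted p = 0.902). In none of the 3 did the groups separate. The remaining 14 reached at most 0.770 FPKM in any library, and 5 of them were listed at 0 in all.

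Gap junction proteins depend on scaffolds, kinases and cadherins, and 17 such connexin partners were read beside the members. Of the 16 tested, 0 were called and 2 had an unadjusted p under 0.05, a share near the 9.96% of all tested genes, and the median log2 change was 0.07. CDH2, N-cadherin, was at 15.0 and 18.5 FPKM with DMSO and 9.57 and 11.3 FPKM with SB (-0.63, limma adjusted p = 0.390). PRKCA, a protein kinase C that phosphorylates Cx43, was at 1.72 and 1.90 FPKM with DMSO and 2.90 and 3.09 FPKM with SB (0.51, adjusted p = 0.484). CDH5, the cadherin of endothelial junctions, had a log2 change of -0.28 (adjusted p = 0.710).

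GJA5 and GJA4 are both used as arterial genes, so they were read beside 15 tested arterial genes that hold neither. None of the 15 was called, 10 had an unadjusted p under 0.05 in the direction of lower with SB, against 9.96% of all tested genes in either direction, and their median log2 change was -0.63. In 11 of the 15 both SB libraries lay below both DMSO libraries, against 16.0% of all tested genes. HEY2, a transcription factor of the Notch pathway, was at 21.2 and 22.2 FPKM with DMSO and at 6.07 and 6.17 FPKM with SB (-1.67, limma adjusted p = 0.0697). UNC5B, a netrin receptor, had a change of -1.49 (adjusted p = 0.205), and CXCR4, a chemokine receptor, of -0.94 (adjusted p = 0.274). GJA4 thus stood at the median of this list, and GJA5 below its lowest gene.

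The 6 venous genes had a median log2 change of 0.53 and none was called. Of the 6, 2 had an unadjusted p under 0.05, both higher with SB, against 9.96% of all tested genes in either direction. NRP2, a VEGF co-receptor, was at 58.9 and 47.7 FPKM with DMSO and 112 and 90.6 FPKM with SB (0.92, limma adjusted p = 0.253). The change was 0.87 for NR2F2, the venous transcription factor COUP-TFII (adjusted p = 0.450), and 0.44 for the apelin receptor APLNR (adjusted p = 0.508). The list did not go 1 way: 4 of the 6 genes had positive changes, and FLT4 and EPHB4, named after their values were seen, had -0.69 (adjusted p = 0.831) and -0.33 (adjusted p = 0.872). Expression of Cx37 and Cx40 is known to respond to blood flow, and of 5 tested flow-responsive genes none was called (0 also at an unadjusted p under 0.05), with a median of 0.17. KLF6, KLF2 and CDKN1B had changes of 0.31, -0.59 and 0.17 (adjusted p from 0.645 to 0.853).

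**Figure D5:**
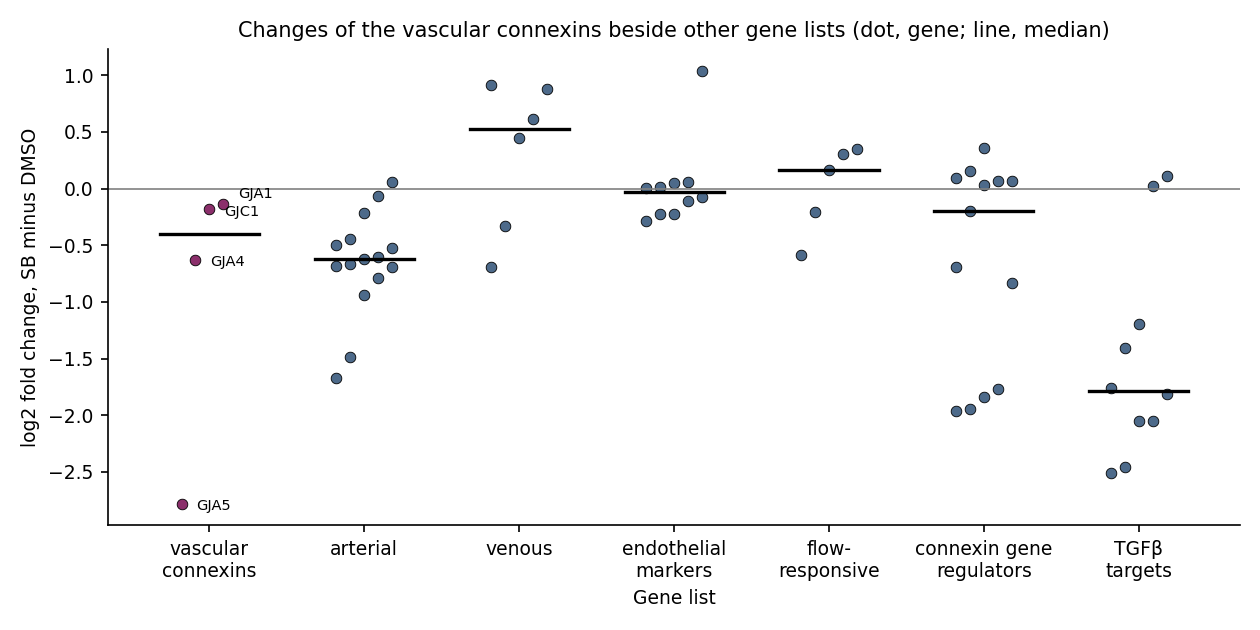
Log2 fold change (SB minus DMSO) of tested genes in 7 lists, 1 dot per gene with the median as a line. GJA5 (-2.78) lies below every gene of the other 6 lists shown (the endoderm and liver markers, not shown, hold 3 genes with more negative changes), while GJA4 (-0.63) lies at the median of the arterial genes and GJA1 and GJC1 lie near the endothelial markers.

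Among 15 transcription factors known to act on connexin genes, 13 were tested and none was called, but 5 had an unadjusted p under 0.05, all lower with SB, against 9.96% of all tested genes in either direction. HAND1 was at 11.6 and 11.1 FPKM with DMSO and at 2.34 and 1.98 FPKM with SB (-1.97, limma adjusted p = 0.0646). FOXC2, an endothelial forkhead factor, was at 6.08 and 4.06 FPKM with DMSO and at 0.904 and 0.474 FPKM with SB (-1.84, adjusted p = 0.135). GATA4 was at 35.5 and 22.9 FPKM with DMSO and at 9.68 and 6.05 FPKM with SB (-1.77, adjusted p = 0.187). The T-box factors of the list were named after their values were seen. TBX5 was at 0.268 and 0.265 FPKM with DMSO and at 0 and 0.0201 FPKM with SB, and TBX2 was at most 0.207 FPKM. TBX3 was at 20.7 and 16.7 FPKM with DMSO and 20.3 and 17.8 FPKM with SB. TBX20 was at 3.23 and 2.92 FPKM with DMSO and 1.40 and 1.16 FPKM with SB (-0.84, limma adjusted p = 0.274). TBX18 had a log2 change of -0.69 (adjusted p = 0.556). The median of the list was -0.20, and in 6 of the 13 both SB libraries lay below both DMSO libraries, against 16.0% of all tested genes.

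The 10 TGFβ targets were read beside the members. They were chosen with earlier results of these data known, so their changes are no independent check of the inhibitor. COL1A1 is also on the list of mesenchyme markers. TGFBI fell from 29.7 and 31.0 FPKM to 4.10 and 4.93 FPKM (-2.51, limma adjusted p = 0.0365). COL1A1 (-2.46, adjusted p = 0.0646) and CTGF (-2.05, adjusted p = 0.0753) did not pass the threshold. The median of the list was -1.78. Of the 10, 7 had an unadjusted p under 0.05, all lower with SB, against 9.96% of all tested genes in either direction. The change of GJA5 was larger than that of any gene on the list.

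Genes with a like profile were ranked for each connexin by the Euclidean distance between log2 values centred on the gene's mean over the 4 libraries, a description that rests on 4 points. Nearest to GJA5 were CRHBP (distance 0.317), COL1A1 (0.345) and HTRA1 (0.404). CRHBP, a binding protein of corticotropin-releasing hormone, was at 72.8 and 79.7 FPKM with DMSO and at 11.9 and 10.2 FPKM with SB. Only 5 of 14908 genes lay within 0.5 of GJA5. This distance depends on the size of the fall, which was known when the set was proposed, so the count is no separate result. Nearest to GJA4 were BAIAP3 (0.027), the endothelial Notch receptor NOTCH4 (0.049) and PNPLA6 (0.065), among 851 genes within 0.5. NOTCH4, at 54.0 and 32.7 FPKM with DMSO and 32.8 and 22.0 FPKM with SB, shared the gap between replicates as well as that between groups. GJA1 and GJC1 had 7620 and 7613 genes within 0.5, and genes near them, LINC00294, TRIAP1 and CTSL for GJA1 and AKR1E2 and GLTP for GJC1, had log2 changes of -0.21 to -0.13.

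The tested neighbours of GJA5 had log2 changes near 0. ACP6, 85.7 kb away, was at 6.88 and 10.8 FPKM with DMSO and 6.90 and 8.55 FPKM with SB (-0.15, limma adjusted p = 0.940). BCL9, 130.0 kb away, had a log2 change of -0.05 (adjusted p = 0.977).

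Sequencing depth could be read only in relative terms, from the most common ratio between libraries among low values of single-exon genes. Set against SB replicate 2, the deepest library, the others held 93.9% (DMSO replicate 1), 90.3% (DMSO replicate 2) and 75.7% (SB replicate 1) of its depth. Between 14183 and 14372 rows per library held at least 1 FPKM. The total number of fragments is unknown, so no counting interval was given.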

How the data were processed

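RNA-seq libraries of H1-derived cells at day 8 (2 DMSO, 2 SB) were grouped by their titles. The authors deposited FPKM values per gene, the unit named in the study's methods. The submitters' processing notes list BWA, Bowtie, RSEM and hg19, with no role. However, 95.5% of the identifiers matched GENCODE release 29 by version and 99.8% of these had its GRCh38 position, so coordinates are on GRCh38. GJA1 carries another version.

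Values were transformed to log2(FPKM + 1), which understates changes of low genes. Genes with a mean of at least 1 FPKM in 1 group (14909) were fitted with limma 3.58.1 (empirical Bayes with trend, R 4.3.3), two-sided, with Benjamini-Hochberg adjustment and a threshold of 0.05. Scripts were tested on simulated data. Members and lists were chosen with earlier results of these data known, so no p-value of GJA5 is independent support. From each list, up to 3 tested genes with the smallest unadjusted p were named. Markers named for low levels and the remaining connexins were chosen after their values were seen. Alternatives were another filter, pseudocount, scaling or prior, the replicate block, and leaving out each library. Some genes that the naming rules would include are not reported here.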

Additional observations from a re-analysis of the deposited data

How the results depend on the processing

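The number of genes called was 20. It was 0 with no filter on low values (2739 of 29447 genes at an unadjusted p under 0.05), 31 with quantile normalization, and between 0 and 14 when 1 library was left out, with 0 called without DMSO replicate 1 (1168 at an unadjusted p under 0.05). With the replicate number as a block it was 1564 (820 higher and 744 lower), including all 20. Deviations of the same number went together between groups (r = 0.53 over 14909 genes), but with 2 pairs and no label on it, the samples share only a number.

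GJA5 kept its log2 change of -2.78 with no filter, at an adjusted p of 0.300, and ranged from -2.93 to -2.63 with 1 library left out. Under the other 6 settings it stayed called. GJA4 had -0.63 with the block (adjusted p = 0.00834) and ranged from -0.98 to -0.28 with 1 library left out. GJA1 ranged from -0.30 to 0.036, turning sign without DMSO replicate 2, and GJC1 from -0.32 to -0.050. The block changed no other call among the 4 genes. The shift of GJA5 against PECAM1 was -2.69 with a pseudocount of 0.1 and -2.81 against the mean of the endothelial markers. The median log2 change of the 3 other tested connexins was 0.17, and its sign turned to -0.05 with no filter and to -0.13 without DMSO replicate 2. The causes were not tested. Unknown depth and 2 libraries a group limit the precision.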

Other observations

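Outside the vascular connexins, GJB1, which encodes the main connexin of hepatocytes, was named after its values were seen. Its DMSO libraries read 0.503 and 0.459 FPKM, and the SB libraries read 0 and 0.0295 FPKM. These levels were under the filter, so GJB1 was not tested. PANX1, a pannexin, whose family forms channels of similar build without being related in sequence to connexins, was at 3.26 and 3.51 FPKM with DMSO and 3.05 and 2.76 FPKM with SB, a log2 change of -0.17 that did not pass the test (limma adjusted p = 0.872).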
